A study of Arabidopsis thaliana with 24 samples.

Results

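The genes described here are the plastid-encoded genes of *Arabidopsis thaliana* that serve the plastid's own gene expression and upkeep. They were chosen by name from the probe sets annotated to the plastid genome, as every *rpo*, *rps*, *rpl* or *ycf* gene with a probe set of its own, together with *matK*, *clpP*, *accD* and *cemA*. The rule gave 30 genes, each with 1 probe set, out of 76 plastid protein genes named by the annotation and 22746 probe sets tested. Of the 30, 25 sat on probe sets that list 1 gene identifier. The other 5 (*rpl2*, *rpl23*, *rps7*, *ycf1* and *ycf2*) lie in the inverted repeat, and their probe sets list both copies under 1 symbol. The rule itself uses names only.

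Transcripts were measured in seed of the wild type Col-0 (WT) and of the mutant *Attim17-1* (tim17-1 below), named for a TIM17 protein of the translocase in the mitochondrial inner membrane. The labels do not say what lesion the allele carries, and *TIM17-1* itself was not analysed here. Each genotype was sampled as dry seed (0 h), after 48 h of stratification at 4 °C in darkness (48 h S), and after a further 6 h (6 h SL) or 24 h (24 h SL) in continuous light of 100 µE at 22 °C, with 3 arrays in each of the 8 groups. All seed was surface sterilised and plated on MS medium, 80 mg of seed made up a sample, and each array reads the whole seed, so fewer cells or plastids and less RNA per cell cannot be told apart. The labels give 14 days after harvest for the dry seed in one field and 15 days of ripening in another, and they call WT dry seed freshly harvested but tim17-1 dry seed only dry. The WT 6 h SL arrays carry a description that speaks of stratification, against their titles and source names, which place them in light; they are grouped here by title.

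A plastid keeps a small genome of its own, inherited from a cyanobacterial ancestor, and reads it with 2 kinds of RNA polymerase. The bacterial-type enzyme has a core encoded by *rpoA*, *rpoB*, *rpoC1* and *rpoC2* in the plastid itself, while the phage-type enzymes are encoded in the nucleus and transcribe, among others, the *rpoB* operon, *accD* and *ycf1*. Plastid ribosomes are bacterial in kind and are built from plastid-encoded *rps* (small subunit) and *rpl* (large subunit) products and a larger number of nuclear-encoded ones. In a dry seed the plastids are small and unpigmented, and they become chloroplasts after imbibition and light. Most plastid messages lack the long poly(A) tails of nuclear mRNAs, and the labels name a standard Affymetrix protocol without saying how the RNA was primed for labelling, so a probe set's value need not follow the total amount of its plastid transcript.

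The 24 arrays had upper quartiles of 234 to 258 intensity units, and 39.3% to 44.5% of the probe sets on an array exceeded 64. Pairs of arrays within a group were 0.108 to 0.244 log2 units apart over all probe sets (root mean square) and 0.176 to 0.539 over the 30 plastid genes, with the widest gap between replicates 2 and 3 of tim17-1 at 24 h SL. The targets of the hybridisation control probe sets are added for the hybridisation and do not measure the RNA per seed. Their mean log2 signal fell from 10.07 to 10.37 at 0 h to between 9.41 and 9.63 at 48 h S, 9.11 and 9.36 at 6 h SL, and 8.85 and 9.14 at 24 h SL. Changes across stages are therefore given under several scalings of the arrays. Of the marker lists for seed tissues, 3 of 13 mature seed genes, 2 of 6 seed coat genes, 0 of 4 endosperm genes and 1 of 5 pollen genes had a probe set of their own. The summed mature seed markers ran from 58713 to 62637 in WT at 0 h, 57313 to 58974 at 48 h S, 26421 to 29229 at 6 h SL and 1019 to 1286 at 24 h SL. In tim17-1 they ran from 55631 to 61387, 52931 to 55597, 33435 to 34743 and 1169.7 to 1314. The summed seed coat markers stayed between 9.83 and 15.2 in all groups.

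Changes below are differences in log2(intensity + 16) with their standard errors (SE), from 1 limma model of all 24 arrays, and a gene is said to rise or fall where its Benjamini-Hochberg adjusted p over all 22746 probe sets was under 0.05. Nothing in the labels ties the 3 arrays of a group to separate seed lots, so the p-values speak only of the scatter among these samples, part of which may be technical. Consecutive steps share the arrays of the stage between them. Levels of different probe sets are not compared with each other.

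**Figure D1:**
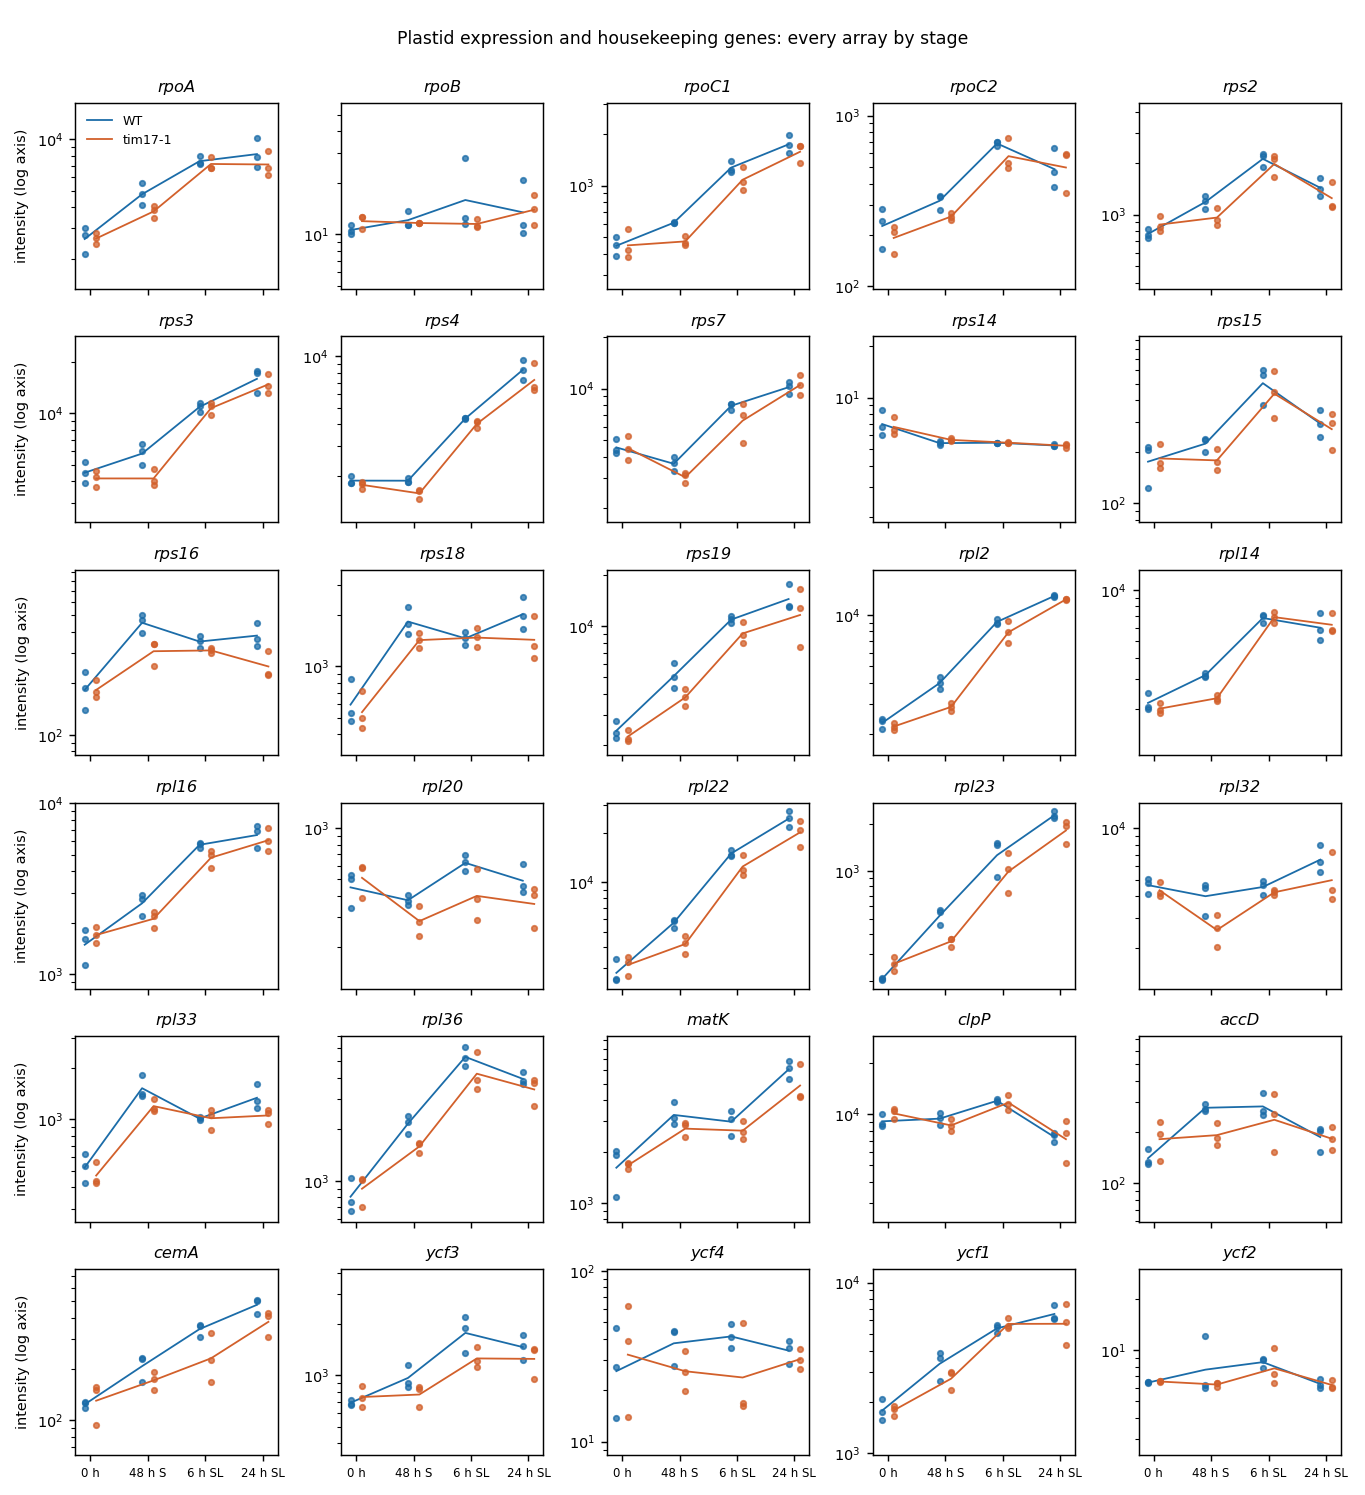
Intensity of each of the 30 plastid genes (log axis, a separate scale in each panel) on every array at the 4 stages, WT in blue and tim17-1 in orange, with lines through the geometric means. The WT arrays of *rpl22* run from between 2519.8 and 3385 at 0 h to between 21959 and 27302 at 24 h SL, while *rps14* and *ycf2* stay at or below 12 on all arrays.

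Among the largest ratios of 24 h SL to dry seed were those of ribosomal genes that lie next to one another in the large gene cluster. The WT mean at 24 h SL was 10.9 times that at 0 h for *rpl23*, 8.74 times for *rpl22*, 5.93 times for *rps19* and 5.53 times for *rpl2*. In tim17-1 the same ratios were 7.04, 6.52, 5.41 and 5.55. For *clpP*, the proteolytic subunit of the Clp protease in the stroma, they were 0.808 in WT and 0.724 in tim17-1. These ratios are of intensities as deposited and move with the scaling of the arrays. Of the 30 genes, 26 had a mean intensity of at least 64. The other 4 were *rpoB* (mean 12.9), *rps14* (5.78), *ycf2* (7.05) and *ycf4* (33.3), and no statement on the expression of those genes can rest on such values, since no detection calls came with the data.

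From dry seed to 48 h of stratification 19 of the 30 plastid genes rose in WT and 1 fell with the values as deposited, but cyclic loess scaling gave 7 rises and 7 falls, and scaling to the hybridisation controls gave 25 rises and 0 falls. Among all probe sets 28.4% rose and 44.7% fell in this step as deposited. Shares of all probe sets under the other scalings are not given here for any step, so counts under those scalings stand without them. The median change over the 30 genes was 0.57 as deposited, 0.02 after cyclic loess, 0.49 after quantile normalisation and 1.19 after scaling to the controls. Over all probe sets it was -0.03, 0.01, 0 and 0.11 in the same order. Many of those probe sets are weak. With a mean intensity of at least 64 the median as deposited was 0.72 over the plastid genes and 0.21 over all probe sets so filtered. Scaling to the controls moved the median of all probe sets by 0.14, from -0.03 to 0.11. The WT group means of the controls were 10.18 at 0 h and 9.55 at 48 h S, a wider gap. Array medians over all probe sets were only 20.6 to 20.8 and 28.2 to 29.9 in these groups, and the offset added before taking logs damps shifts of such weak values. The 0.14 thus understates what the scaling does to bright genes. The move from 0.57 to 1.19 over the 30 genes cannot be read as a rise beyond the scaling. What can be said of this step in WT without regard to scaling concerns 7 genes that rose under all 4 treatments of the arrays, which were *rps16*, *rps18*, *rpl23*, *rpl33*, *rpl36*, *accD* and *cemA*, the last of which encodes a protein of the plastid envelope. Under cyclic loess the sign of 8 of the other rises turned, for *rpoA*, *rps3*, *rps19*, *rpl2*, *rpl14*, *rpl16*, *rpl22* and *ycf3*.

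The largest rises of the step belonged to *rps18* and *rpl33*, neighbours in the genome that encode a small and a large subunit protein. WT arrays of *rps18* read 530.3, 476 and 838 at 0 h and 2235, 1764 and 1545 at 48 h S, a rise of 1.59 ± 0.238 log2 units (SE, n = 3 arrays a group, limma adjusted p = 1.04e-05). WT arrays of *rpl33* read 425, 534 and 629 at 0 h and 1828, 1375 and 1404 at 48 h S, a rise of 1.51 ± 0.156 (limma adjusted p = 8.03e-08). For both genes every stratified array lay above every dry seed array. In tim17-1 the same step was 1.37 ± 0.238 for *rps18* (436, 720.3 and 497 going to 1572, 1286 and 1424) and 1.32 ± 0.156 for *rpl33* (434, 562 and 423 going to 1155, 1118 and 1324). Both rises also held under all 4 scalings in tim17-1, as did that of *rps16*, which encodes another small subunit protein.

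The third largest WT rise was that of *rpl36*, a small protein of the large subunit, at 1.40 ± 0.200 (limma adjusted p = 5.7e-06). Its WT arrays read 669, 1045 and 752 in dry seed and 2224, 2404 and 1888 after stratification. In tim17-1 it rose by 0.81 ± 0.200, from 705, 1007 and 1023 to 1652, 1462 and 1666, a rise that did not pass the test after cyclic loess (0.08, limma adjusted p = 0.746). The gene for the plastid-encoded subunit of acetyl-CoA carboxylase, *accD*, which serves fatty acid synthesis, read 134, 129 and 159.6 in WT dry seed and 293, 273 and 267 at 48 h S, a rise of 0.91 ± 0.220 (limma adjusted p = 0.00141). In tim17-1 *accD* changed by 0.07 ± 0.220 (limma adjusted p = 0.815), but the difference of the 2 steps, -0.84 ± 0.311, did not pass the test (limma adjusted p = 0.185).

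The single WT fall of this step was that of *rps14*, which read 8.44, 6.72 and 6.04 at 0 h and 5.4, 5.27 and 5.57 at 48 h S, a change of -0.11 ± 0.0271 (limma adjusted p = 0.00215) that turned to 0.06 after scaling to the hybridisation controls. At intensities this low the value says little about the transcript. In tim17-1 11 of the 30 genes rose and 4 fell as deposited (26.8% and 32.9% of all probe sets), with 3 rises and 12 falls after cyclic loess and 25 rises and 0 falls after scaling to the hybridisation controls. Median change over the 30 genes was 0.17, -0.33 and 0.89 under these 3 treatments, against -0.02, 0.01 and 0.16 over all probe sets. The 0.16 is damped by the offset, as in WT. With a mean intensity of at least 64 the median as deposited was 0.33 over the plastid genes and 0.15 over all probe sets so filtered. The 4 that fell as deposited were *rps7*, *rps14*, *rpl20* and *rpl32*, by 0.07 to 0.81 log2 units, and none of the 4 kept its fall under all 4 scalings.

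The step from stratification to 6 h of light depended least on the scaling. In WT 19 of the 30 genes rose and 1 fell, against 19.4% and 18.4% of all probe sets, and in tim17-1 19 rose and 0 fell, against 18.9% and 19.2%. All 19 rises in each genotype held under all 4 scalings. Over 15 alternatives, arrays left out included, the WT call was lost in 5 for *rpl20* and 1 for *cemA*. In tim17-1 it was lost in 2 for *clpP* and 1 for *rpl32*. Median change over the 30 genes was 0.77 in WT and 0.98 in tim17-1 (0 and -0.01 over all probe sets), and the medians under the other scalings ran from 0.79 to 1.05 in WT and from 0.96 to 1.24 in tim17-1. By role, the WT rises were 3 of 4 polymerase genes, 6 of 9 small subunit genes and 7 of 9 large subunit genes, and outside the ribosome and polymerase *cemA*, *ycf3*, an assembly factor of photosystem I, and *ycf1*, a large envelope protein tied to protein import.

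Among the polymerase genes *rpoC2*, which encodes the β″ subunit, read 337, 336 and 281 in stratified WT seed and 659, 696 and 704 after 6 h of light, a rise of 1.08 ± 0.223 (limma adjusted p = 0.000647). Its neighbour *rpoC1*, for the β′ subunit, rose by 1.05 ± 0.138 in WT and 1.17 ± 0.138 in tim17-1, and *rpoA*, for the α subunit, by 0.64 ± 0.153 and 0.92 ± 0.153. For these 3 genes no 6 h SL array of a genotype lay below a 48 h S array of the same genotype. The fourth core gene, *rpoB*, for the β subunit, read 10 to 28 over the 24 arrays and passed the test in no comparison.

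The largest WT rises of this step were in the large subunit. Stratified WT arrays of *rpl22* read 5922, 5827 and 5279 and those at 6 h SL 14552, 15779.9 and 14819, a rise of 1.41 ± 0.149 (limma adjusted p = 3.8e-07). For *rpl36* the WT values went on to 4711, 5262 and 6060.4, a rise of 1.29 ± 0.200 (limma adjusted p = 3.38e-05), and for *rpl23* they went from 549, 564 and 457 to 1502, 918 and 1454, a rise of 1.25 ± 0.188 (limma adjusted p = 2.44e-05). In none of these genes did the arrays of both stages overlap. In tim17-1 *rpl22* rose by 1.57 ± 0.149 (4708, 4281 and 3668 to 11932, 11128 and 14769), *rpl36* by 1.41 ± 0.200 (to 3867, 3452 and 5703) and *rpl23* by 1.43 ± 0.188 (373, 332 and 373 to 725, 1036 and 1311). In the small subunit *rps4*, whose product binds 16S rRNA early in assembly in bacteria, had an estimate of 0.00 ± 0.108 in WT over stratification and then rose by 1.20 ± 0.108, from 1943, 1836 and 1829.6 to 4329, 4276 and 4362.

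Several members with other courses took part in the same rise. WT arrays of *rps7*, an early-binding protein of the small subunit in bacteria, read 4363, 5044 and 4216 at 0 h, 3981, 3663 and 3283 at 48 h S, and 8142, 8145 and 7532 at 6 h SL, a rise of 1.12 ± 0.158 in the light step (limma adjusted p = 1.13e-05). Those of *rpl14* read 3258, 3149 and 3103 at 48 h S and 6368, 7158 and 7033 at 6 h SL, a rise of 1.11 ± 0.116 in WT, with 1.57 ± 0.116 in tim17-1. Outside the ribosome *ycf3* rose by 0.87 ± 0.191 in WT, from 909, 1157 and 857 to 1344, 1898 and 2187, and by 0.69 ± 0.191 in tim17-1. The envelope genes *ycf1* and *cemA* rose by 0.69 ± 0.170 and 0.68 ± 0.202 in WT. In tim17-1 *ycf1* rose by 1.06 ± 0.170, whereas the change of *cemA* (0.40 ± 0.202, limma adjusted p = 0.136) did not pass the test.

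The single WT fall of the light step was that of *rpl33*, by 0.58 ± 0.156 log2 units (limma adjusted p = 0.00538), from the stratified values above to 1015, 989 and 1028. That call was lost after scaling to the hybridisation controls (-0.30). In tim17-1 the change of *rpl33* was -0.23 ± 0.156 (limma adjusted p = 0.268). Its neighbour *rps18* changed by -0.32 ± 0.238 in WT and 0.05 ± 0.238 in tim17-1, neither of which passed the test. The intron maturase gene *matK*, whose product helps splice plastid introns, also passed the test in neither genotype in this step (-0.13 ± 0.210 and -0.04 ± 0.210).

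**Figure D2:**
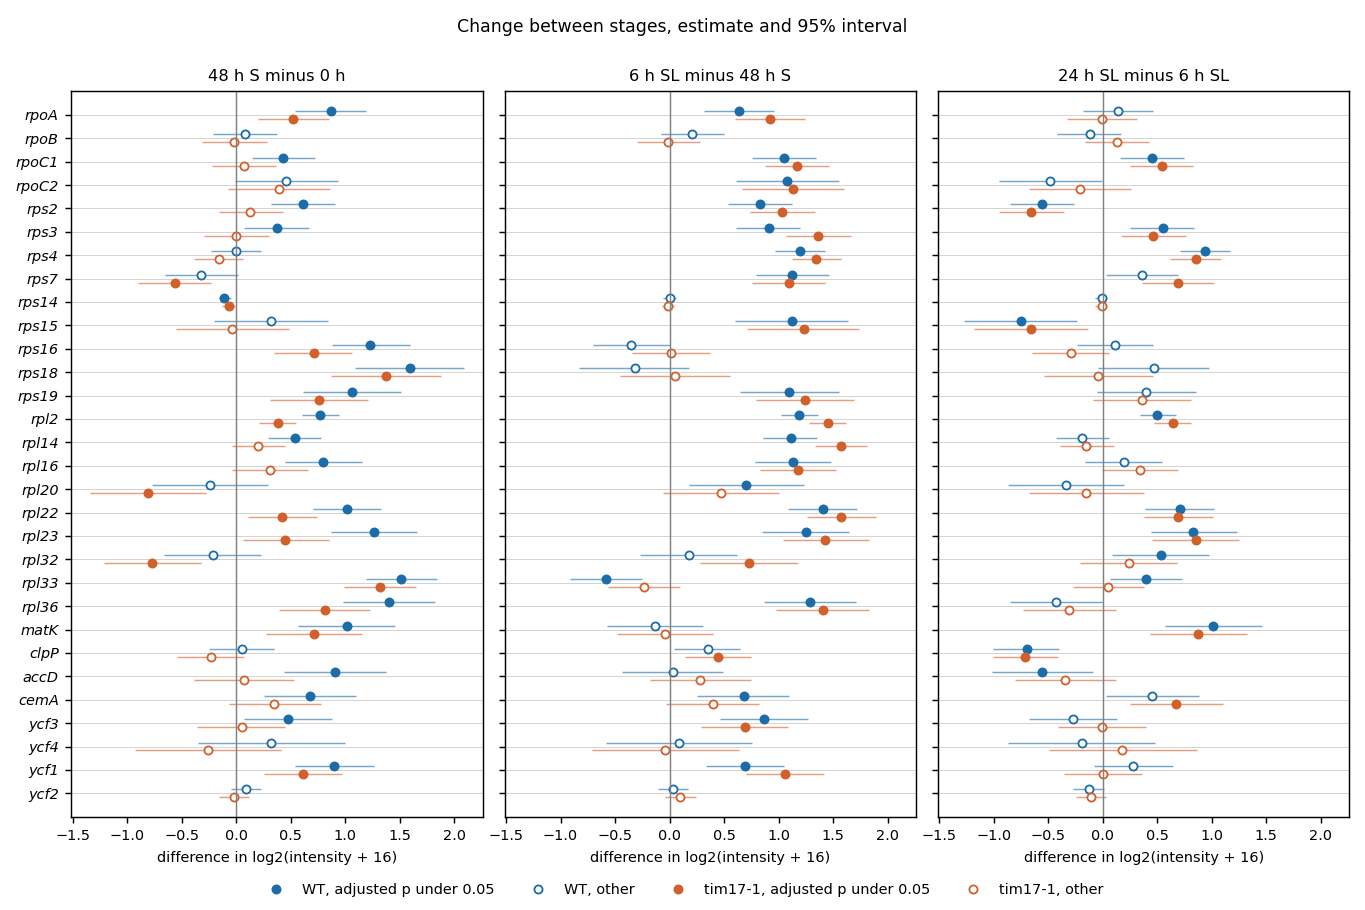
Change of each plastid gene in log2(intensity + 16) over the 3 steps, WT in blue and tim17-1 in orange, with 95% intervals, filled where the adjusted p was under 0.05. At 6 h SL minus 48 h S 19 genes rose in each genotype; the 48 h S minus 0 h values are as deposited, and cyclic loess turned 8 of the WT rises and 6 of the tim17-1 rises below 0 or to 0.

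Between 6 h and 24 h of light the genes parted. In WT 9 rose and 4 fell as deposited, against 20.5% and 25.1% of all probe sets, while cyclic loess gave 15 rises and 1 fall and scaling to the hybridisation controls 16 rises and 1 fall. In tim17-1 9 rose and 3 fell, against 20.7% and 22.5%. All 9 rises in each genotype held under all 4 scalings, and in WT these were *rpoC1*, *rps3*, *rps4*, *rpl2*, *rpl22*, *rpl23*, *rpl32*, *rpl33* and *matK*. Over 15 alternatives, arrays left out included, the WT call was lost in 7 for *rpl33*, 6 for *rpl32* and 1 for *rpoC1*. In tim17-1 it was lost in 2 for *rps3* and for *cemA* and in 1 for *rps7* and for *rpl23*. Median change was 0.16 in WT and 0.03 in tim17-1 as deposited, 0.40 and 0.20 after cyclic loess, and 0.45 and 0.24 after scaling to the hybridisation controls. With 1 compared array left out it ran from 0.07 (WT 24 h SL replicate 1) to 0.29 (WT 24 h SL replicate 3) in WT. In tim17-1 it ran from -0.03 (24 h SL replicate 2) to 0.19 (24 h SL replicate 3).

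The largest rise was that of *matK*, at 1.01 ± 0.210 (limma adjusted p = 0.000531) in WT, from 2480.3, 3106 and 3469.9 at 6 h SL to 6751, 5299 and 6184 at 24 h SL. In tim17-1 *matK* rose by 0.87 ± 0.210, from 2356, 2598 and 3037 to 4231, 6534 and 4171. Next came *rps4* at 0.94 ± 0.108 (limma adjusted p = 6.68e-07), reaching 9529, 7288 and 8301 in WT and 6641, 9148 and 6318 in tim17-1. The third was *rpl23* at 0.83 ± 0.188 (limma adjusted p = 0.0011), reaching 2395, 2232 and 2160.0 in WT and 1937, 2040.5 and 1495 in tim17-1. In all 3 genes the 24 h SL arrays lay above the 6 h SL arrays of the same genotype.

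The fall that held under all 4 scalings in both genotypes was that of *clpP*. Its WT arrays read 8739, 8555 and 9979.8 at 0 h, 8571, 10163 and 9536 at 48 h S, 11857, 12329 and 11709.6 at 6 h SL, and 7712, 7492 and 6834 at 24 h SL. From 6 h to 24 h SL it fell by 0.70 ± 0.144 log2 units in WT (limma adjusted p = 0.000442) and by 0.71 ± 0.144 in tim17-1, where the arrays went from 10619, 11503 and 12997 to 9128, 7697 and 5155. The other WT falls were those of *rps15* (-0.75 ± 0.246, limma adjusted p = 0.0171), *rps2* (-0.56 ± 0.139, limma adjusted p = 0.00268) and *accD* (-0.56 ± 0.220, limma adjusted p = 0.0476). None of those 3 calls held under cyclic loess or under scaling to the hybridisation controls. The call of *accD* was also lost when any of the 6 compared arrays was left out (-0.43 to -0.63). WT arrays of *rps15* read 377, 601 and 563 at 6 h SL and 352, 289.9 and 244 at 24 h SL, and its call was also lost when replicate 2 or 3 of WT 6 h SL or replicate 3 of WT 24 h SL was left out (-0.63 to -0.68). WT arrays of *rps2* read 1908, 2266 and 2207 and then 1631, 1411 and 1287, with no overlap. In tim17-1 *rps2* and *rps15* also fell as deposited. There the fall of *rps2* held under all 4 scalings (-0.66 to -0.45), and that of *rps15* did not.

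Some genes that neighbour each other in the plastid genome had similar time courses, above all in 1 run of ribosomal genes. Neighbours were taken in the order of protein-coding genes only, so genes for other RNAs may lie between them, and strand was not used. The likeness of 2 genes was measured as Pearson's correlation of their 8 group means on the log2 scale, a description over groups that all come from the same 24 arrays and share their scaling. For 14 neighbouring pairs with mean intensities of at least 64 the median correlation was 0.96 and the range -0.23 to 0.99, and for the 311 other pairs the median was 0.74 and the range -0.57 to 1. Many of the closest neighbouring pairs came from the run given next. Outside it, *matK* and *rps16* correlated at 0.66, *rps7* and *ycf1* at 0.77, *rps15* and *ycf1* at 0.80, and *ycf3* and *rps4* at 0.83. The remaining pairs are given in the next paragraph. Genes far apart could be as alike, such as *rpoA* and *ycf1* (1). The run *rpl14*, *rpl16*, *rps3*, *rpl22*, *rps19*, *rpl2*, *rpl23*, which belongs to the cluster that plastids share with bacterial ribosomal protein operons, had correlations of 0.97 to 0.99 between neighbours. In that run all 7 genes rose in the light step in both genotypes. The first 2 of them, *rpl14* and *rpl16*, did not pass the test from 6 h to 24 h SL in WT (-0.19 ± 0.116 and 0.19 ± 0.166), nor did *rps19* (0.40 ± 0.213), while *rps3*, *rpl22*, *rpl2* and *rpl23* rose by 0.50 to 0.83.

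A second kind of course was that of *rpl33* and *rps18*, with a correlation of 0.98, whose rise over stratification was followed in WT by estimates of -0.58 and -0.32 in the light step. The gene *rps16* was most like *rpl33* (0.93). The next gene on, *rpl20*, did not share it, with a correlation of -0.23 with *rps18*. WT arrays of *rpl20* read 339.6, 533 and 500.4 at 0 h, 375, 407 and 352 at 48 h S and 561, 692 and 629 at 6 h SL. In the polymerase region *rps2* and *rpoC2* correlated at 0.94 and *rpoC2* and *rpoC1* at 0.89, although *rps2* fell from 6 h to 24 h SL where *rpoC1* rose (0.45 ± 0.138, limma adjusted p = 0.012). Which genes share a transcript was not measured here.

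**Figure D3:**
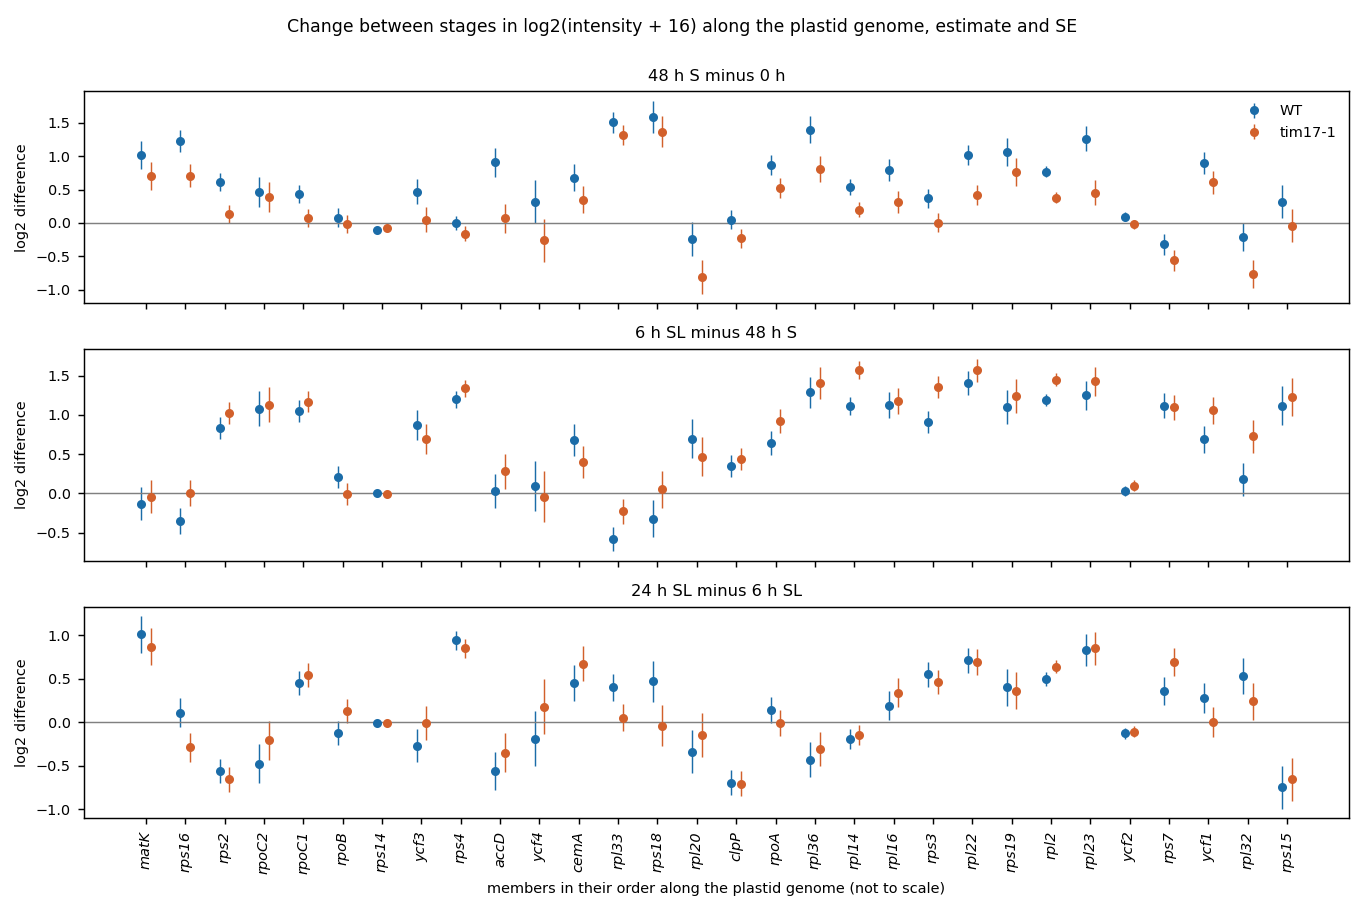
Change in log2(intensity + 16) over the 3 steps for the 30 genes in their order along the plastid genome (evenly spaced, not to scale), with SE bars, WT in blue and tim17-1 in orange. The neighbours *rpl33* and *rps18* stand at the top in the first panel and below 0 in WT in the second, where the run from *rpl14* to *rpl23* lies between 0.91 and 1.57; first-panel heights move with the scaling, and cyclic loess turned 8 WT and 6 tim17-1 rises.

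The question put by the mutant was whether these transcripts differ between tim17-1 and WT at a given stage. At 48 h S 29 of the 30 estimates lay below 0, against 38.1% of all probe sets, and 1 gene, *rpl2*, passed the test as lower in tim17-1, against 0.87% of all probe sets, with 0 higher against 0.361%. Median difference over the 30 genes was -0.34 log2 units (range -0.65 to 0.02), against 0.01 over all probe sets, and it ran from -0.27 to -0.32 under the other 3 scalings. With a mean intensity of at least 64 it was -0.35, against -0.03 over all probe sets so filtered. By role the median was -0.31 over 4 polymerase genes (4 below 0), -0.30 over 9 small subunit genes (8 below 0) and -0.44 over 9 large subunit genes (9 below 0). At an unadjusted p under 0.05 limma called 14 of the 30 and 12.2% of all probe sets. For 17 of the 30 genes all 3 tim17-1 arrays read lower than all 3 WT arrays, against 9.99% of all probe sets, and for 0 were they all higher, against 8.64%. Neither these counts nor the median is a test of the list, and the genes share the same arrays.

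The gene that passed, *rpl2*, encodes a large subunit protein whose bacterial counterpart lies at the peptidyl transferase centre. WT arrays read 3984, 4295 and 3684 at 48 h S and tim17-1 arrays 3042, 2736 and 2889.5, a difference of -0.46 ± 0.0799 (SE, n = 3 arrays a group, limma adjusted p = 0.00802). At 0 h the groups overlapped (2143, 2459 and 2388 against 2199, 2330.1 and 2117), as they did at 6 h SL (8933, 9454 and 8867 against 6827, 7889 and 9148). At 24 h SL the WT arrays (12857, 13032 and 12776) lay just above those of tim17-1 (12391, 12152 and 12334), a difference of -0.07 ± 0.0799. The call at 48 h S was lost after scaling to the hybridisation controls (-0.39, limma adjusted p = 0.205), with only the 6 arrays compared (-0.46, limma adjusted p = 0.0735) and without replicate 2 of WT 48 h S (-0.41, limma adjusted p = 0.0519).

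Other genes of the set had differences of the same size at 48 h S with wider errors. The estimate was -0.65 ± 0.211 for *rpl32*, -0.53 ± 0.167 for *rps16*, -0.52 ± 0.188 for *rpl23*, -0.50 ± 0.220 for *accD*, -0.48 ± 0.141 for *rps3* and -0.45 ± 0.116 for *rpl14*, with limma adjusted p between 0.0733 and 0.372. For *rpl23* the WT arrays read 549, 564 and 457 and the tim17-1 arrays 373, 332 and 373, and for *rps3* they read 6583, 5997 and 4990.3 against 4753, 3998 and 3791. Neither pair of groups overlapped. Limma with array weights, which counts noisier arrays less, called 8.19% of all probe sets lower and 11 of the 30 genes, namely *rpoC1*, *rps3*, *rps4*, *rps16*, *rpl2*, *rpl14*, *rpl22*, *rpl23*, *rpl32*, *rpl33* and *rpl36*. *clpP* had the smallest difference among genes with a mean of at least 64, at -0.13 ± 0.144.

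Photosynthesis genes of the plastid genome, 33 in number, had 30 estimates below 0 at 48 h S with a median of -0.21, and the 11 NDH genes had 10 below 0 with a median of -0.15. The lower values at 48 h S were thus also found among plastid genes of other function, and whether the medians differ was not tested. The 22 measured genes of the nuclear lists described below had 9 estimates below 0 and a median of 0.03. These lists hold Clp, import and photosystem I assembly genes as well as expression genes. Hybridisation controls overlapped between the genotypes at this stage (9.49 to 9.63 in WT, 9.41 to 9.57 in tim17-1), while the summed mature seed markers did not, as given above, and its 3 genes differed in direction. *M17* was lower in tim17-1 (-0.45 ± 0.0934, limma adjusted p = 0.0219). *M10* read 29963 to 31102 in WT and 32732 to 34658 in tim17-1 (0.14 ± 0.0678, limma adjusted p = 0.42). *OLEO3* read 416 to 444 and 359.9 to 374 (-0.20 ± 0.0905, limma adjusted p = 0.373). The part of these in the difference of the plastid genes was not tested.

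**Figure D4:**
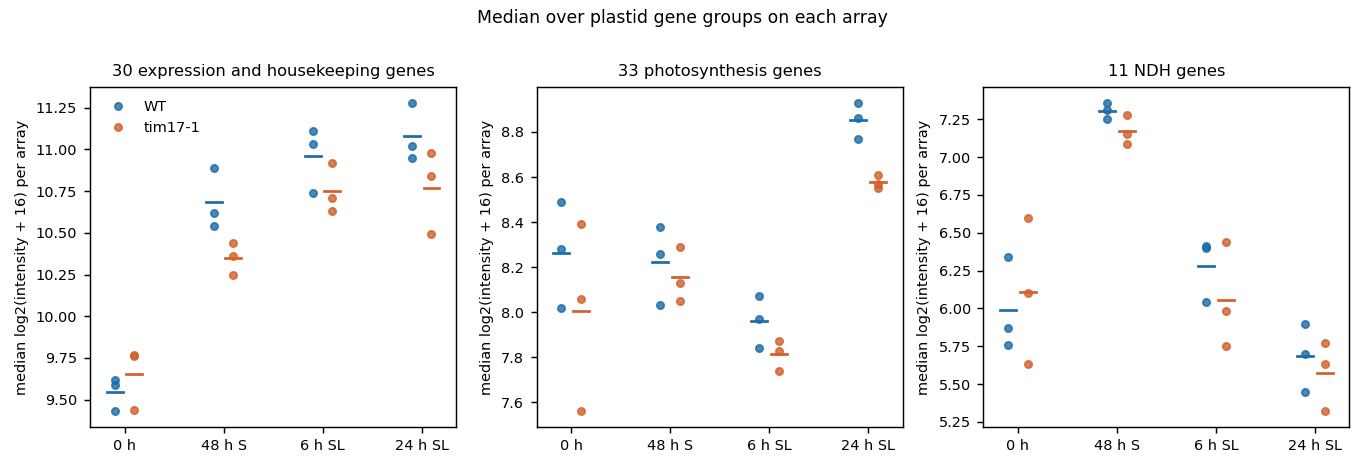
Median log2(intensity + 16) on each array over the 30 genes described here, 33 plastid photosynthesis genes and 11 plastid NDH genes, by stage, with a bar at each group mean, WT in blue and tim17-1 in orange. At 48 h S the left panel has WT arrays at 10.54 to 10.89 and tim17-1 arrays at 10.25 to 10.44, without overlap; heights across stages move with the scaling.

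At the other stages the genotypes were closer. In dry seed 12 of 30 estimates lay below 0 (49.3% of all probe sets did), the median was 0.01, and 0 genes were called higher and 0 lower, against 1.32% and 2.33% of all probe sets, with 0 at an unadjusted p under 0.05 (14.4% of all probe sets). In 1 of the 30, *rpl23*, all dry tim17-1 arrays read higher than all WT arrays (6.28% of all probe sets did), and in 0 lower (6.41%). At 6 h SL 26 of 30 lay below 0 (51.8% of all probe sets did) with a median of -0.20, 0 were called higher and 0 lower (0.51% and 0.769% of all probe sets), and limma gave 4 at an unadjusted p under 0.05 (8.08% of all probe sets). That median ran from -0.29 without replicate 3 of tim17-1 to -0.11 without replicate 3 of WT, and was -0.12 without replicate 2 of tim17-1. The summed mature seed markers were higher in tim17-1 at this stage without overlap, with *M10* called higher (0.39 ± 0.0678, limma adjusted p = 0.00636), and their part was not tested. Of the 30 genes, 3 had all tim17-1 arrays below all WT arrays at 6 h SL (8.22% of all probe sets did), which were *rps4*, *rps16* and *rpl16*, and 0 had them above (6.72%). At 24 h SL 26 of 30 lay below 0 (45.1% of all probe sets did) with a median of -0.19, 0 were called higher and 0 lower (1.59% and 2.73%), and limma gave 2 at an unadjusted p under 0.05 (13.6% of all probe sets). Without replicate 3 of tim17-1 18 of 30 lay below 0 and the median was -0.04, without replicate 1 of WT it was -0.08, and without replicate 2 of tim17-1 it was -0.31. There *rps16*, *rpl2*, *rpl23* and *rpl33* had all tim17-1 arrays below all WT arrays, 4 of 30 against 7.83% of all probe sets, and 0 had them above (8.58%). Leaving out replicate 2 of tim17-1 at 24 h SL, an array of the widest pair, made 3 calls, all lower, for *rps4*, *rps16* and *rpl32*. At 24 h SL *M10* was again called higher in tim17-1 (0.40 ± 0.0678, limma adjusted p = 0.00143), at 226.7 to 249.2 against 149.6 to 191.9 in WT. The summed mature seed markers overlapped at that stage, as did *M17* and *OLEO3*, and their part was not tested.

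Averaged over the 4 stages all 30 estimates lay at or below 0, with a median of -0.18, and 2 genes were called lower (3.08% of all probe sets) and 0 higher (1.11%). The first was *rpl2* at -0.20 ± 0.0400 (limma adjusted p = 0.00673), a call lost after scaling to the hybridisation controls (-0.18, limma adjusted p = 0.104). The second was *rps16*, a small subunit protein gene with an intron, at -0.32 ± 0.0833 (limma adjusted p = 0.0385). Its arrays read 471, 504 and 393 in WT against 339, 342 and 254 in tim17-1 at 48 h S, 321, 357 and 381 against 314, 303 and 320.4 at 6 h SL, and 454, 333 and 366 against 224, 311 and 228 at 24 h SL. At those 3 stages every tim17-1 array lay below every WT array, while at 0 h (139.8, 234 and 188 against 166, 177 and 209) they overlapped. The call of *rps16* was lost after scaling to the hybridisation controls (-0.30, limma adjusted p = 0.0938) and when any of 15 of the 24 arrays was left out (-0.28 to -0.32). Without replicate 2 of tim17-1 at 24 h SL 5 genes were called, *rps4*, *rps16*, *rps19*, *rpl2* and *rpl32*.

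**Figure D5:**
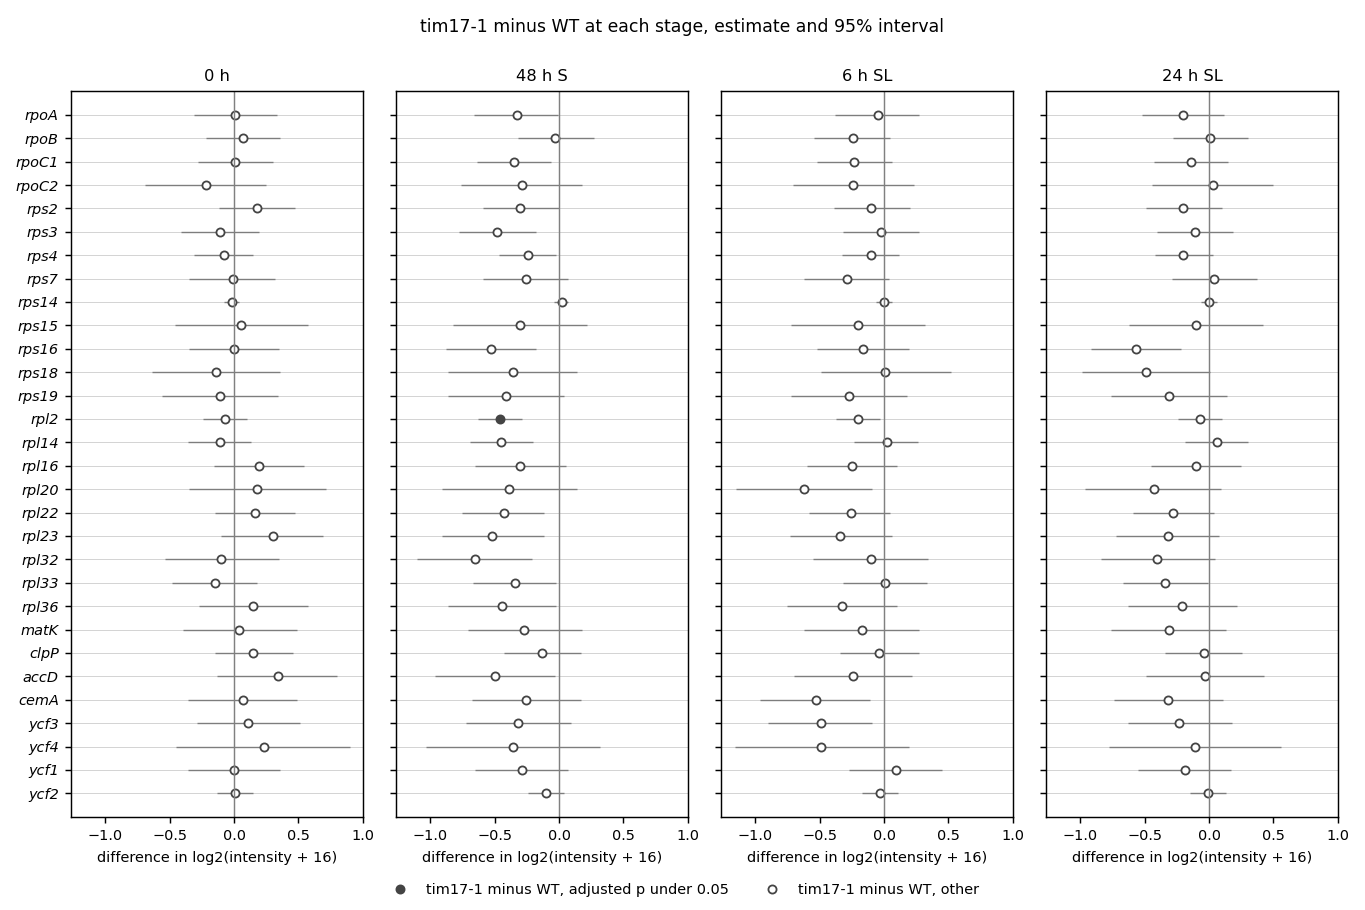
Difference tim17-1 minus WT in log2(intensity + 16) for each of the 30 genes at the 4 stages, with 95% intervals, filled where the adjusted p was under 0.05. At 48 h S 29 of the 30 points lie left of 0 and *rpl2* (-0.46) is filled.

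Whether a step itself differed between the genotypes was tested as the difference of the 2 steps. From 0 h to 48 h S 0 of the 30 genes passed that limma test, against 2.68% of all probe sets, and 6 had an unadjusted p under 0.05 (16.3% of all probe sets). Without replicate 1 or 3 of tim17-1 at 6 h SL, arrays outside the comparison that share its estimate of spread, 1 gene passed, *rpl2*. The smallest adjusted p belonged to *rpl2* (-0.39 ± 0.113, limma adjusted p = 0.0817) and the largest sizes to *accD* and *rpl23* (-0.81 ± 0.265, limma adjusted p = 0.127). From 48 h S to 6 h SL the count was 0 against 0.717%, with 3 at an unadjusted p under 0.05 (9.29% of all probe sets), and with array weights 1 gene, *rpl14*, passed. From 6 h to 24 h SL it was 0 against 1.53%, with 0 at an unadjusted p under 0.05 (9.62%). The calls of the separate genotypes were the same for 19, 25 and 25 of the 30 genes in the 3 steps, and the lower number of rises in tim17-1 from 0 h to 48 h S was not matched by a difference of steps that passed.

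Nuclear genes that serve the same apparatus could be followed only in part, with 22 of 124 listed genes on a probe set of their own. Of 38 listed nuclear genes for plastid ribosomal proteins 9 were measured. All 9 rose in WT from 0 h to 48 h S (median 2.10, range 0.80 to 3.65; 8 of 9 with a median of 1.16 after cyclic loess), 7 of the 9 rose from 48 h S to 6 h SL (median 0.44) and 8 of the 9 from 6 h to 24 h SL (median 0.88). In tim17-1 the counts were 9, 6 and 8, and 0 fell in either genotype under all 4 scalings. Of all probe sets 28.4%, 19.4% and 20.5% rose in the 3 WT steps as deposited, and 26.8%, 18.9% and 20.7% in those of tim17-1. The largest WT rise was that of AT5G47190, from 27.6, 22.2 and 19.7 at 0 h to 501, 454 and 466 at 48 h S, a change of 3.65 ± 0.0953 (limma adjusted p = 1.92e-16). In tim17-1 AT1G29070 rose by 3.45 ± 0.137, from 81.6, 157 and 139 to 1444, 1622 and 1412. Between genotypes 1 of the 9 passed the test, AT2G43030, at 6 h SL and averaged over stages (-0.11 ± 0.0193, limma adjusted p = 0.00299). At 6 h SL it read 5771, 5503 and 5989 in WT and 4797, 5206 and 5196 in tim17-1 (-0.18 ± 0.0386, limma adjusted p = 0.026). Of all probe sets 0.769% were called lower at 6 h SL and 3.08% averaged over stages.

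Of 29 listed genes for plastid RNA processing 5 were measured, of which 4 rose and 0 fell in WT from 0 h to 48 h S, with 4 rises and 1 fall after cyclic loess. Of all probe sets 28.4% rose and 44.7% fell in that step as deposited. The largest changes were those of AT5G46580 (2.80 ± 0.108, limma adjusted p = 4.59e-14) and *CFM3A*, a plastid splicing factor (2.28 ± 0.134, limma adjusted p = 2.38e-11), which read 88.4, 115.5 and 124 at 0 h and 583.5, 636 and 553.5 at 48 h S in WT. From 48 h S to 6 h SL 0 rose and 2 fell in WT as deposited (19.4% and 18.4% of all probe sets), which turned to 2 rises and 0 falls after scaling to the hybridisation controls. From 6 h to 24 h SL 0 rose as deposited (20.5% of all probe sets) and 4 after cyclic loess. Of 14 listed nuclear Clp genes, partners of *clpP* in the same protease, 5 were measured, and 3 rose and 2 fell in WT from 0 h to 48 h S (28.4% and 44.7% of all probe sets), with 2 rises and 3 falls after cyclic loess. As deposited AT4G12060 rose by 1.65 ± 0.0542 and AT4G25370 by 1.27 ± 0.0745 in that step. From 6 h to 24 h SL, where *clpP* fell, 3 of the 5 rose and 1 fell as deposited (20.5% and 25.1% of all probe sets), and 3 or 4 rose under the other scalings.

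Of the 9 listed nuclear polymerases and sigma factors 1 was measured, AT5G15700, which changed by 0.92, -0.46 and -1.56 log2 units over the 3 WT steps and passed the test in each. Its WT arrays read 64.5, 69.3 and 69.9 at 0 h, 146, 153 and 129 at 48 h S, 95.9, 100.8 and 99.8 at 6 h SL, and 23.3, 23.6 and 21.8 at 24 h SL. The gene *MDH*, 1 of 15 listed for protein import and its motor, rose by 2.12 in WT and 2.32 ± 0.107 in tim17-1 from 0 h to 48 h S. Of the 2 photosystem I assembly partners AT1G22700 was measured and rose by 0.63 ± 0.0960 in tim17-1 in that step. No gene of the 13 polymerase-associated proteins or of the 4 nuclear acetyl-CoA carboxylase subunits could be followed, as the annotation lists no probe set for any of them alone. Compared with the photosynthesis genes of the same genome, the expression genes had the higher median change in WT from 0 h to 48 h S, at 0.57 against -0.26 as deposited, 0.02 against -0.62 after cyclic loess, 0.49 against -0.46 after quantile normalisation and 1.19 against 0.07 after scaling to the hybridisation controls. As deposited, the median of the 11 NDH genes on a WT array went from 5.76 to 6.34 at 0 h up to 7.25 to 7.36 at 48 h S. That of the 30 genes went from 9.43 to 9.62 up to 10.54 to 10.89, so a higher median was not particular to them. From 6 h to 24 h SL the photosynthesis median went from 7.84 to 8.07 up to 8.77 to 8.93. That of the 30 genes overlapped (10.74 to 11.11 and 10.95 to 11.28). The lists share the same arrays, and differences between them were not tested.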

How the data were processed

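RNA of 24 seed samples, 400 ng each, was labelled with biotin and hybridised to 1-colour Affymetrix arrays, per the labels' protocols. The authors deposited linear intensity values, with a column for each array, which were used as deposited. MAS5, RMA and Partek stand in the submitters' processing notes, and the sources used here do not give which of them made the values or how arrays were scaled. Of 22810 probe sets 22746 were tested, all but 64 controls. Genes were named from the platform annotation and a RefSeq gene list of the assembly TAIR10.1, used for names and gene order. The members and lists were chosen with earlier results of these data known.

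In R 4.3.3, limma 3.58.1 (data read with the package data.table, version 1.17.8) fitted 8 group means to log2(intensity + 16) over all arrays (16 residual degrees of freedom), and 14 contrasts were adjusted by Benjamini-Hochberg. The offset understates changes of weak transcripts. With 3 arrays a group the smallest p of an exact permutation test is 0.1, so none was used. The number of arrays limits the precision. Intensities come without detection calls. The procedure was tested on simulated data. Alternatives were offsets of 1 and 64, cyclic loess and quantile normalisation, a mean of at least 64, array weights, a replicate block, the compared arrays only and each array left out. Scaling to the hybridisation controls and the 25 genes on probe sets with 1 identifier were added after seeing the data. Same-numbered WT and tim17-1 arrays correlated at -0.26 to 0.09 in their deviations from group means, so the numbers pair no arrays.

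Genes given in full were those called between genotypes, the 3 largest rises and falls among called genes in each WT step, the highest and lowest mean (*rpl22*, *rps14*), and from each nuclear list the 2 called genes with the largest change between genotypes and between stages. Others, such as *rpl20*, *accD*, *rps3* and *rpoC2*, were chosen after their values were seen. No sequences were used here.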

Additional observations from a re-analysis of the deposited data

Results flagged for a closer look

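The pollen-list gene AT5G45880, which is no plastid gene, had a difference of steps from 0 h to 48 h S of 1.68 ± 0.134 log2 units (limma adjusted p = 7.18e-07). It read 543 to 816 in WT and 177 to 227 in tim17-1 at 0 h and 5.06 to 6.54 in both genotypes at 48 h S. With both genotypes that low at 48 h S, the size of this difference rests on the 0 h arrays (-1.64 ± 0.095, limma adjusted p = 4.4e-09) and the offset.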

How the results depend on the processing

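With the values as deposited and their alternatives, 1428 of 1562 checks of a called plastid gene kept their direction and call, 117 kept the direction without the call and 17 turned. Under cyclic loess the WT change from 0 h to 48 h S turned to -0.13 for *rpoA*, -0.79 for *rps3*, -0.01 for *rps19*, -0.26 for *rpl2*, -0.38 for *rpl14*, -0.06 for *rpl16*, -0.17 for *rpl22* and 0 for *ycf3*, and the tim17-1 change to -0.51 for *rpoA*, -0.36 for *rps19*, -0.68 for *rpl2*, -0.81 for *rpl22*, -0.12 for *matK* and -0.30 for *ycf1*. Under scaling to the hybridisation controls the same step turned to 0.06 (WT) and 0.11 (tim17-1) for *rps14* and to 0.16 (tim17-1) for *rps7*. That scaling moved the median of all probe sets in this step by 0.14 in WT and 0.18 in tim17-1. Which scaling is right for dry against imbibed seed was not tested. The count of genes lower in tim17-1 at 48 h S (1) became 3 with a mean of at least 64, 11 with array weights and 0 with control scaling. With the compared arrays only it stayed 1, by a gene other than *rpl2*. Over the 25 genes with 1 identifier it was 0 by construction, as these leave out *rpl2* and use the same fit. At 24 h SL (0) it became 1 (*rps16*) with cyclic loess, quantile normalisation, a mean of at least 64 or array weights. Averaged over stages (2) it became 0 with control scaling, and it was 1 over the 25 genes, again because these leave out *rpl2*. In tim17-1 the 15 calls from 0 h to 48 h S became 25 with control scaling, the 12 from 6 h to 24 h SL became 7 with the compared arrays only, and the 0 differences of steps from 48 h S to 6 h SL became 1 with array weights. Leaving out 1 array of the groups compared gave 0 to 1 calls at 48 h S, 0 to 3 at 24 h SL and 1 to 5 averaged over stages. The WT steps gave 17 to 20, 18 to 20 and 9 to 11 calls and the tim17-1 steps 12 to 15, 18 to 21 and 10 to 12. At 0 h, at 6 h SL and in the differences of steps it gave 0. Leaving out an array of another group gave up to 2 calls at 48 h S (*rpl2* and *rpl14*, without WT 24 h SL replicate 1 or 3), 1 at 24 h SL (*rps16*, without WT 0 h replicate 1 or 2) and 1 difference of steps from 0 h to 48 h S (*rpl2*, without tim17-1 6 h SL replicate 1 or 3). The replicate block gave 1 call at 48 h S and moved no count by over 1.5 times. The alternative of another probe set for a gene was not run, since each gene had 1. Without detection calls, how far *rpoB*, *rps14*, *ycf2* and *ycf4* lie above background is not known.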

Other observations

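A further ribosomal gene of the plastid, *rps12*, is split in the genome and trans-spliced, and its 2 probe sets list 2 gene identifiers, so it was left out of the 30. The brighter probe set read 1241 ± 150.3 (SD, n = 3) in WT at 0 h, 1231 ± 56.1 at 48 h S, 3855 ± 209.9 at 6 h SL and 6754 ± 862 at 24 h SL. It rose by 1.63 ± 0.200 (SE) in WT and 1.61 ± 0.200 in tim17-1 from 48 h S to 6 h SL (limma adjusted p = 2.31e-06 and 2.97e-06), and by 0.80 ± 0.200 and 0.95 ± 0.200 from 6 h to 24 h SL, and these 4 rises passed under all 4 scalings. The dimmer probe set read 48.0 ± 9.88 at 48 h S and 96.0 ± 25.7 at 6 h SL in WT and rose by 0.79 ± 0.279 (limma adjusted p = 0.0311), while in tim17-1 its change in that step, 0.59 ± 0.279, did not pass the test (limma adjusted p = 0.109).

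The gene *ccsA*, for a protein that attaches heme to c-type cytochromes, belongs to neither the expression genes nor the photosystem, cytochrome, ATP synthase and NDH groups. It rose in each of the 3 steps in both genotypes with the values as deposited, by 1.01 ± 0.180, 0.54 ± 0.180 and 0.84 ± 0.180 in WT and by 1.27 ± 0.180, 0.48 ± 0.180 and 0.94 ± 0.180 in tim17-1 (SE, n = 3 arrays a group, limma adjusted p of at most 0.0434). Its WT means were 374.5 ± 88.8 (SD), 756 ± 33.6, 1113 ± 157.6 and 1989 ± 88.6. All 6 rises of *ccsA* also passed after cyclic loess, quantile normalisation and scaling to the hybridisation controls.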
